A study of Ovis aries with 4 samples.

Results

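The genes described here are 4 insulin-like growth factor (IGF) binding proteins, IGFBP3 (ENSOARG00000012862), IGFBP5 (ENSOARG00000019421), IGFBP6 (ENSOARG00000016699) and IGFBP7 (ENSOARG00000005761), taken by symbol from the 20150 genes of a single-cell RNA sequencing series of the lactating sheep mammary gland. IGFs drive growth and survival of mammary cells, and the secreted binding proteins carry them, hold them in the matrix and set how much reaches the IGF receptor. IGFBP3 is the main carrier of IGFs in blood, IGFBP5 binds matrix and is known for its rise in the involuting gland, and IGFBP6 prefers IGF2. IGFBP7 binds IGFs weakly and is deposited around blood vessels.

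Mammary gland tissue came from 4 lactating ewes, with 1 droplet (10x) library for each ewe. Library titles gave 2 groups, LH (replicates 1 and 2) and LL (replicates 1 and 2). The series text names a peak and a late lactation stage, each with 2 ewes, and abbreviates the late stage as LL. It does not spell out LH, and no treatment, genotype or age was given for either group. The question was which cells carried each binding protein, how sharply the 4 genes divided the cell types, and how LH and LL differed.

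The 4 libraries held 39246 barcodes and between 28015149 and 65339993 unique molecular identifiers (UMIs, 1 for each captured transcript), and 35605 cells were kept. Median depth was 2693 to 3294 UMIs per barcode. LH replicate 1 stood apart: 38.9% of its cells fell in the CD3E (T cell) gate, against 6.42% to 7.86% in the other libraries. Of all barcodes, 158 occurred in 2 or more libraries.

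Cells were assigned by marker genes that are not binding proteins. A cell had to pass 1 gate and no other, except in the IDO1/CCN2 gate below. At least 5 UMIs of DCN (decorin, a fibroblast matrix proteoglycan) or at least 1 UMI of each other marker were required. The DCN gate held 209, 9, 1732 and 1053 cells in LH replicates 1 and 2 and LL replicates 1 and 2, an order kept for every list of 4 values below. The EDNRA gate (endothelin A receptor, of contractile mural cells) held 280, 1609, 1250 and 1254 cells, and the EPCAM/CLDN4 gate (luminal epithelium) held 293, 1870, 725 and 1533. The RELN gate (reelin, made by lymphatic endothelium among others) held 45, 151, 279 and 178 cells, and the SELP/KDR gate (P-selectin and VEGF receptor 2, blood endothelium) held 16, 59, 645 and 102. Before cells of several gates were set aside, 149, 329, 787 and 420 cells passed RELN and 139, 653, 1403 and 1225 passed SELP/KDR. The gate for cells with both IDO1 and CCN2 held 0, 0, 5 and 1 cells, and cells that also passed EPCAM/CLDN4 alone stayed in it. Levels were computed from UMIs summed over the cells of a gate in 1 library, as counts scaled to a common total (CPM).

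Most independent markers were high where their gates placed them. SERPINF1, a fibroblast product, had a median of 819 CPM over libraries in DCN cells and 1.14 CPM in EDNRA cells, and TPM1 and CNN1, contractile genes, had 1452 and 76.2 CPM in EDNRA cells. AVPR1A, a vasopressin receptor, had 32.5 CPM in EDNRA and 1.00 CPM in DCN cells, but AGTR1, an angiotensin receptor listed with the contractile genes, was higher in DCN cells (36.1 CPM) than in EDNRA cells (14.4 CPM). LTF, SPP1 and PAEP, milk protein genes, had medians of 1493, 2216 and 1565 CPM in EPCAM/CLDN4 cells. The casein gene CSN2 stood at 0, 0.214, 123 and 16.1 CPM there and CSN3 at 2.08, 5.19, 999.8 and 10.4 CPM, so LL replicate 1 stood apart. The RELN gate was mixed. F8, which lymphatic and other endothelial cells make, stood at 94.7, 13.4, 207 and 215 CPM in it, and TPM1 at 135, 806, 244 and 274 CPM. The macrophage gene MRC1 stood at 144, 77.6, 55.9 and 54.3 CPM. C1QA, also a macrophage gene, had a median of 226 CPM in RELN cells, ranging from 97.9 to 1768 CPM. SELP/KDR cells held luminal RNA too, with a median of 621 CPM of LTF. SELE, a blood endothelial gene, had a median of only 9.98 CPM in them, ranging from 0 to 195 CPM. Before cells of several gates were set aside, 57.6%, 88.1%, 21.0% and 80.6% of the cells passing SELP/KDR also passed EPCAM/CLDN4.

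IGFBP3 was a gene of DCN cells and, at a lower level, of SELP/KDR cells. In DCN cells it stood at 468, 371 and 233 CPM in LH replicate 1 and LL replicates 1 and 2, from 425, 2257 and 698 UMIs. The 9 DCN cells of LH replicate 2 had no IGFBP3 UMI, which allows up to 284 CPM (95% exact Poisson limit, counting error only). In SELP/KDR cells the values were 338, 143 and 59.9 CPM in LH replicate 2 and LL replicates 1 and 2, and 4 UMIs in the 16 cells of LH replicate 1 gave 40.6 CPM. DCN cells were above SELP/KDR cells in both LL ewes, by 2.59-fold and 3.89-fold, and no LH ewe had 20 cells in both gates. Everywhere else IGFBP3 was near 0: at most 15.2 CPM in RELN cells, 10.7 CPM in EPCAM/CLDN4 cells, 7.79 CPM in EDNRA cells and 3.95 CPM in CD3E cells. Against the mean of the other gates, the log2 difference was 5.51 ± 0.48 (SE) in DCN cells (edgeR quasi-likelihood test, adjusted p = 4.2e-08) and 4.04 ± 0.55 in SELP/KDR cells (edgeR adjusted p = 2.73e-05), in 1 fit with the library as a block. The DCN and the SELP/KDR sums came from 3 libraries each, and those of the other gates from 4. When cells that pass several gates were kept in each of them, the SELP/KDR difference of IGFBP3 was -0.13 (edgeR adjusted p = 0.878), and that gate then took in the luminal cells with KDR described next.

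**Figure D1:**
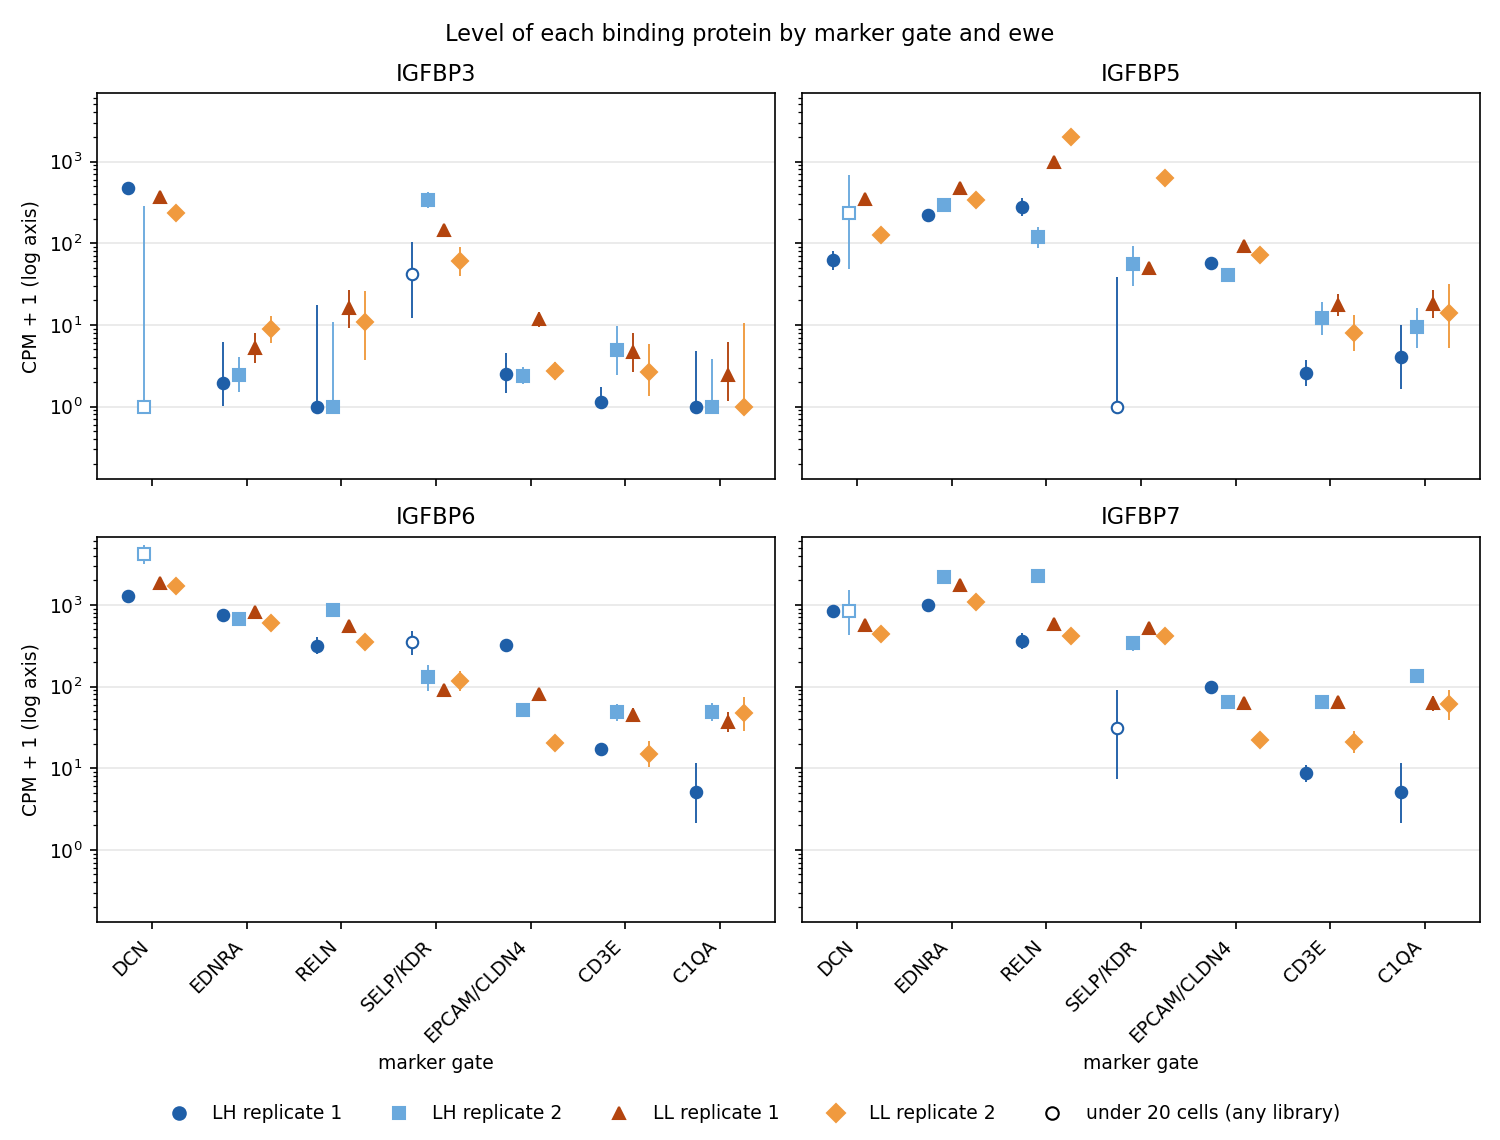
Level of each binding protein (CPM + 1, log axis) in 6 marker gates and in C1QA cells (macrophage marker), with 1 point per ewe, 95% exact Poisson bars and open symbols for sums of under 20 cells. IGFBP3 stands above 50 CPM in DCN and SELP/KDR cells alone among sums of at least 20 cells, IGFBP6 is highest in DCN cells, and IGFBP7 stands at 988 to 2162 CPM in EDNRA cells.

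Within the SELP/KDR gate, IGFBP3 was higher in cells with KDR and no SELP than in cells with SELP in LL replicate 1, the only ewe with many of both. These sub-gates were chosen after the data were seen and get no test. In LL replicate 1, 231 cells with KDR and neither SELP nor RELN had 475 CPM of IGFBP3, and 414 cells with SELP and no RELN had 24.7 CPM. IGFBP7 was at 536 and 517 CPM in the same cells. The other ewes had 7, 8 and 9 cells with SELP and no RELN, too few to compare. In LL replicate 2 the 102 cells of the whole SELP/KDR gate had 59.9 CPM of IGFBP3. KDR was also present in luminal cells: 70, 503, 223 and 927 cells carried KDR with EPCAM or CLDN4, and IGFBP3 stood at 1.17, 1.88, 2.67 and 0.823 CPM in them.

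IGFBP6 was highest in DCN cells and next in EDNRA cells. DCN cells had 1272, 1870 and 1689 CPM in LH replicate 1 and LL replicates 1 and 2, and the 9 cells of LH replicate 2 had 4151 CPM from 54 UMIs. EDNRA cells had 740, 678, 818 and 600 CPM, the narrowest range over ewes among the 3 gates with the highest medians. The ratio of DCN to EDNRA cells was 1.72, 2.29 and 2.81 in the 3 ewes with enough DCN cells. RELN cells followed with 316, 859, 543 and 350 CPM, below EDNRA cells in 3 of 4 ewes. The log2 difference from the mean of the other gates was 3.24 ± 0.40 in DCN cells (edgeR adjusted p = 2.98e-06) and 1.75 ± 0.36 in EDNRA cells (edgeR adjusted p = 0.000927). In RELN cells it was 1.12 ± 0.40 and missed the threshold of 0.05 (edgeR adjusted p = 0.072).

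IGFBP7 had its highest median in EDNRA cells. They had 988, 2162, 1725 and 1097 CPM, and each ewe with enough DCN cells had less in those, with EDNRA-to-DCN ratios of 1.19, 3.01 and 2.48. DCN cells had 831, 573 and 443 CPM in LH replicate 1 and LL replicates 1 and 2. SELP/KDR cells had 338, 522 and 419 CPM in LH replicate 2 and LL replicates 1 and 2. RELN cells had 361, 2243, 582 and 410 CPM, in LH replicate 2 slightly above the EDNRA cells of that ewe, so DCN, RELN and SELP/KDR cells overlapped over ewes and had no order. The log2 difference was 2.63 ± 0.32 in EDNRA cells (edgeR adjusted p = 3.67e-06), 1.42 ± 0.40 in DCN cells (edgeR adjusted p = 0.0078) and 1.42 ± 0.36 in RELN cells (edgeR adjusted p = 0.0129). The RELN call was lost without LH replicate 2 (log2 0.89, edgeR adjusted p = 0.183) and without LL replicate 2 (edgeR adjusted p = 0.0855), and the DCN call without LL replicate 2 (edgeR adjusted p = 0.0532).

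IGFBP5 had its highest values in RELN cells of the LL ewes. RELN cells had 280, 118, 986 and 1999 CPM, and EDNRA cells 222, 292, 475 and 334 CPM. RELN cells were above EDNRA cells by 1.26-fold, 2.07-fold and 5.99-fold in LH replicate 1 and LL replicates 1 and 2, and at 0.403 of the EDNRA level in LH replicate 2. DCN cells had 61.7, 346 and 123 CPM in the 3 ewes with at least 20 cells, and EPCAM/CLDN4 cells had 56.0, 39.7, 91.3 and 71.0 CPM. SELP/KDR cells had 54.2, 49.1 and 622 CPM in LH replicate 2 and LL replicates 1 and 2, so LL replicate 2 alone was high. The log2 difference was 2.79 ± 0.45 in RELN cells (edgeR adjusted p = 0.00027) and 1.82 ± 0.46 in EDNRA cells (edgeR adjusted p = 0.00444). In DCN cells it was 0.15 ± 0.57 (edgeR adjusted p = 0.877).

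Splitting RELN cells by endothelial markers, after the data were seen, separated IGFBP5 from IGFBP7. RELN cells with an F8 or KDR UMI and no SELP UMI numbered 40, 9, 340 and 164, those with KDR included although they pass both gates. They had 1095, 1040, 1478 and 3389 CPM of IGFBP5. RELN cells without F8, KDR and SELP numbered 32, 147, 183 and 130 and had 286, 118, 701 and 1593 CPM, less in each of the 4 ewes. IGFBP7 went the other way, with 271, 1193, 251 and 164 CPM in the first kind and 402, 2301, 774 and 505 CPM in the second. In LH replicate 2, 9 cells were of the first kind and 147 of the second, and the second had 825 CPM of TPM1. A further fit, with gates also chosen after the data were seen, limited the RELN gate to the first kind. It also let luminal cells with KDR into the EPCAM/CLDN4 gate and added a gate of cells with IDO1 or CCN2 and no other marker. LH replicate 2, with 9 cells of the first kind, gave no RELN sum. In that fit the log2 difference of IGFBP5 in RELN cells was 4.06 (edgeR adjusted p = 3.01e-08) and that of IGFBP7 was -0.21 (edgeR adjusted p = 0.765).

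**Figure D2:**
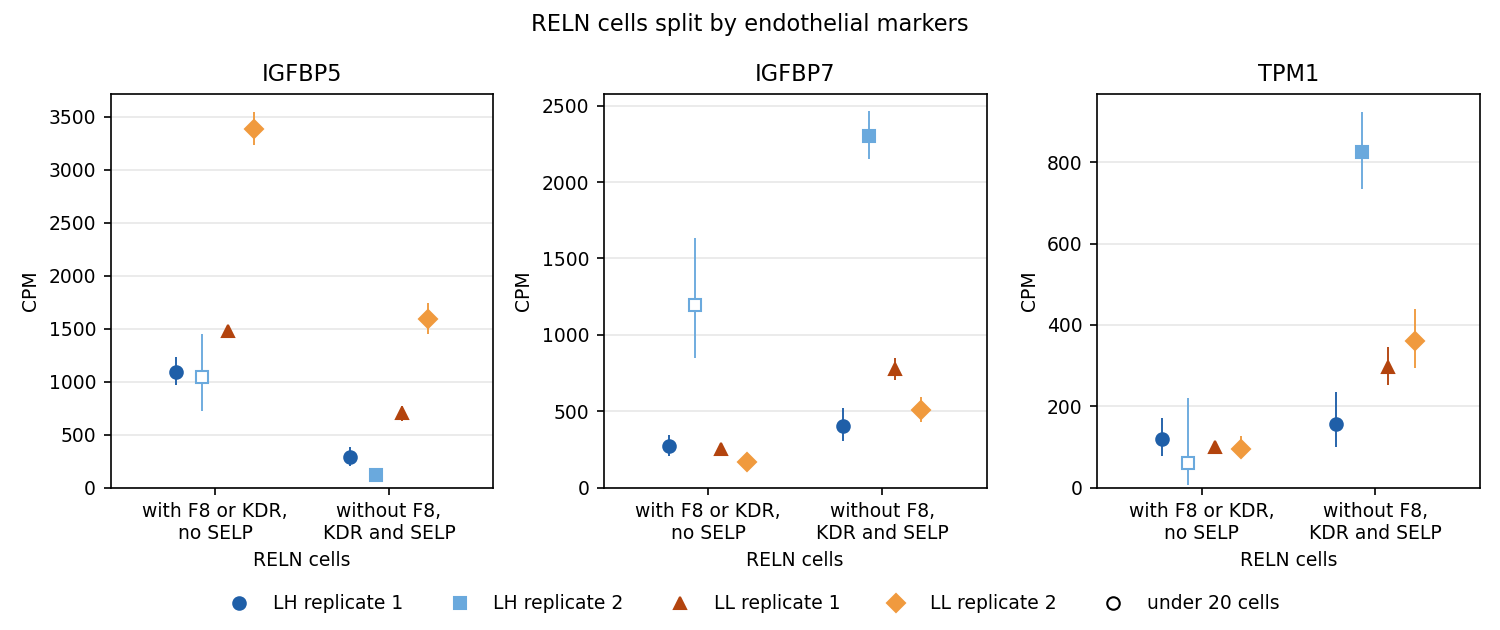
Level (CPM, linear axes) of IGFBP5, IGFBP7 and the contractile gene TPM1 in RELN cells with F8 or KDR and in RELN cells without F8, KDR and SELP, 1 point per ewe with 95% exact Poisson bars and open symbols for sums of under 20 cells. IGFBP5 is higher in the first kind in each ewe and IGFBP7 in the second, and the 147 cells of LH replicate 2 have the highest TPM1, 825 CPM.

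Counted over gates, 17 of the 24 pairs of a binding protein and a gate passed the edgeR test at an adjusted p under 0.05, and all 4 genes passed the filter on low counts. Many genes divide cell types, so these counts stand beside the share of all 12356 genes called in the same contrast and direction. In DCN cells 3 of the 4 genes were called, all higher, against 23.2% of all genes. In EDNRA cells IGFBP5, IGFBP6 and IGFBP7 were called higher (19.2% of all genes) and IGFBP3 lower (17.8% of all genes). In RELN cells 2 of 4 were called higher (10.3% of all genes) and in SELP/KDR cells 1 of 4, IGFBP3 (13% of all genes). In EPCAM/CLDN4 cells IGFBP3, IGFBP6 and IGFBP7 were lower (22.6% of all genes), by log2 differences of -2.45, -1.43 and -2.66. In CD3E cells all 4 were lower (29.4% of all genes), with log2 differences between -3.38 for IGFBP6 and -4.38 for IGFBP5. Without LH replicate 1, the T cell-rich library, 19 pairs were called, and the log2 differences of IGFBP3 and IGFBP6 in DCN cells, IGFBP7 in EDNRA cells and IGFBP5 in RELN cells were 4.77, 3.60, 2.77 and 2.85. The lower call of IGFBP3 in EDNRA cells was lost without LL replicate 1 (edgeR adjusted p = 0.131). That of IGFBP6 in EPCAM/CLDN4 cells was lost when LH replicate 2 (edgeR adjusted p = 0.137) or either LL ewe (edgeR adjusted p = 0.133 and 0.182) was left out.

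T cells (CD3E) and macrophages (C1QA) were taken as cells that should hold little of these genes. Free RNA in droplets was not measured, and its part in their levels was not tested. After each cell was thinned to 1000 UMIs, an IGFBP7 UMI was seen in 0.657%, 4.60%, 3.78% and 1.88% of CD3E cells and in 0.690%, 10.5%, 4.41% and 5.49% of C1QA cells. EDNRA cells reached 56.8%, 80.6%, 72.0% and 59.9%, far above both in each ewe. Median depths before thinning were 3379.5, 2626, 2874.5 and 2211.5 UMIs in EDNRA cells, 3299, 2749, 2660 and 2348 in CD3E cells and 2802.5, 2059, 5758 and 3338 in C1QA cells. IGFBP6 was seen in 53.9%, 67.2% and 59.6% of DCN cells of LH replicate 1 and LL replicates 1 and 2, and in 0.866% to 3.45% of CD3E cells. IGFBP3 was seen in 38.2%, 26.2% and 18.9% of the same DCN cells, and in 0, 0, 3 and 0 CD3E cells (at most 0.355%) and 0, 4, 6 and 4 EDNRA cells (at most 0.507%). The EDNRA cells with IGFBP3 were too few to tell from free RNA at this depth. IGFBP5 was seen in 15.9%, 8.66%, 39.5% and 51.3% of RELN cells and 17.3%, 21.4%, 27.6% and 21.5% of EDNRA cells. In EPCAM/CLDN4 cells, IGFBP5 (5.92%, 4.79%, 9.72% and 8.92%) stood above CD3E and C1QA cells in all 4 ewes. IGFBP7 there (10.8%, 8.19%, 7.89% and 2.58%) was below C1QA cells in LH replicate 2 and LL replicate 2, but above CD3E cells in each ewe. The part of free RNA in it was not tested.

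**Figure D3:**
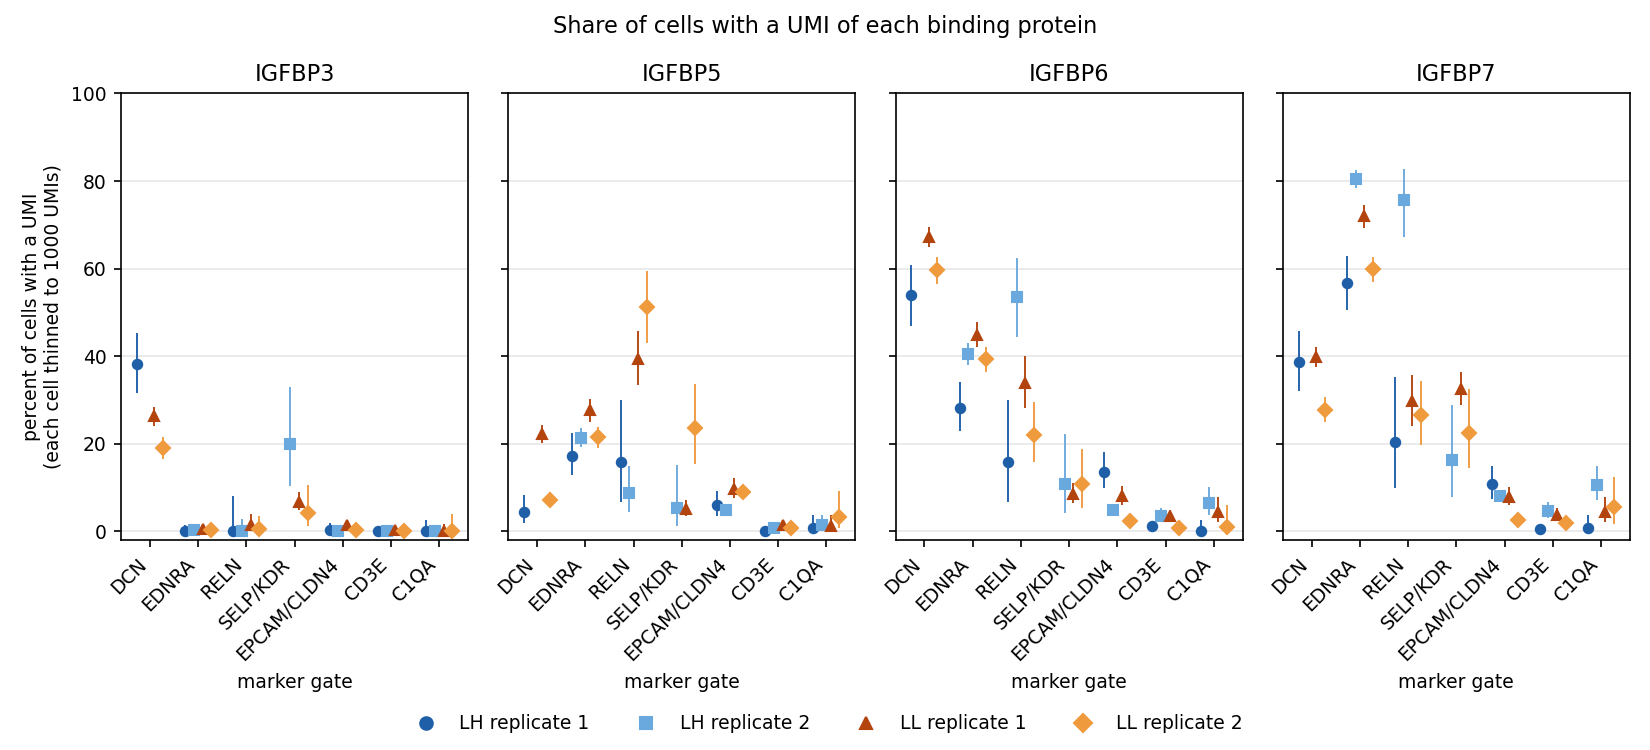
Percent of cells with at least 1 UMI of each binding protein after thinning to 1000 UMIs, by gate and ewe, with 95% exact binomial bars and groups of under 20 cells left out. The IGFBP7 shares of EDNRA cells, 56.8% to 80.6%, are the highest of that gene in each ewe, and IGFBP3 is near 0% outside DCN and SELP/KDR cells.

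The gates did not hold all of the transcripts. Of all IGFBP3 UMIs, DCN cells held 75.2%, 60.0% and 69.3% in LH replicate 1 and LL replicates 1 and 2. In LH replicate 2, with 9 DCN cells, SELP/KDR cells held 45.3% of a total of only 179. EDNRA cells held 21.9%, 40.1%, 24.5% and 28.1% of IGFBP7 UMIs, and cells that passed no gate held 23.8%, 41.5%, 40.3% and 46.5%. Those ungated cells, C1QA cells aside, had 227, 1461, 895 and 730 CPM of IGFBP7 at median depths of 1904 to 2592 UMIs. In LH replicate 1, cells that passed several gates held 50.8% of IGFBP5 and 48.7% of IGFBP6, against at most 31.4% and 17.5% in the other ewes.

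**Figure D4:**
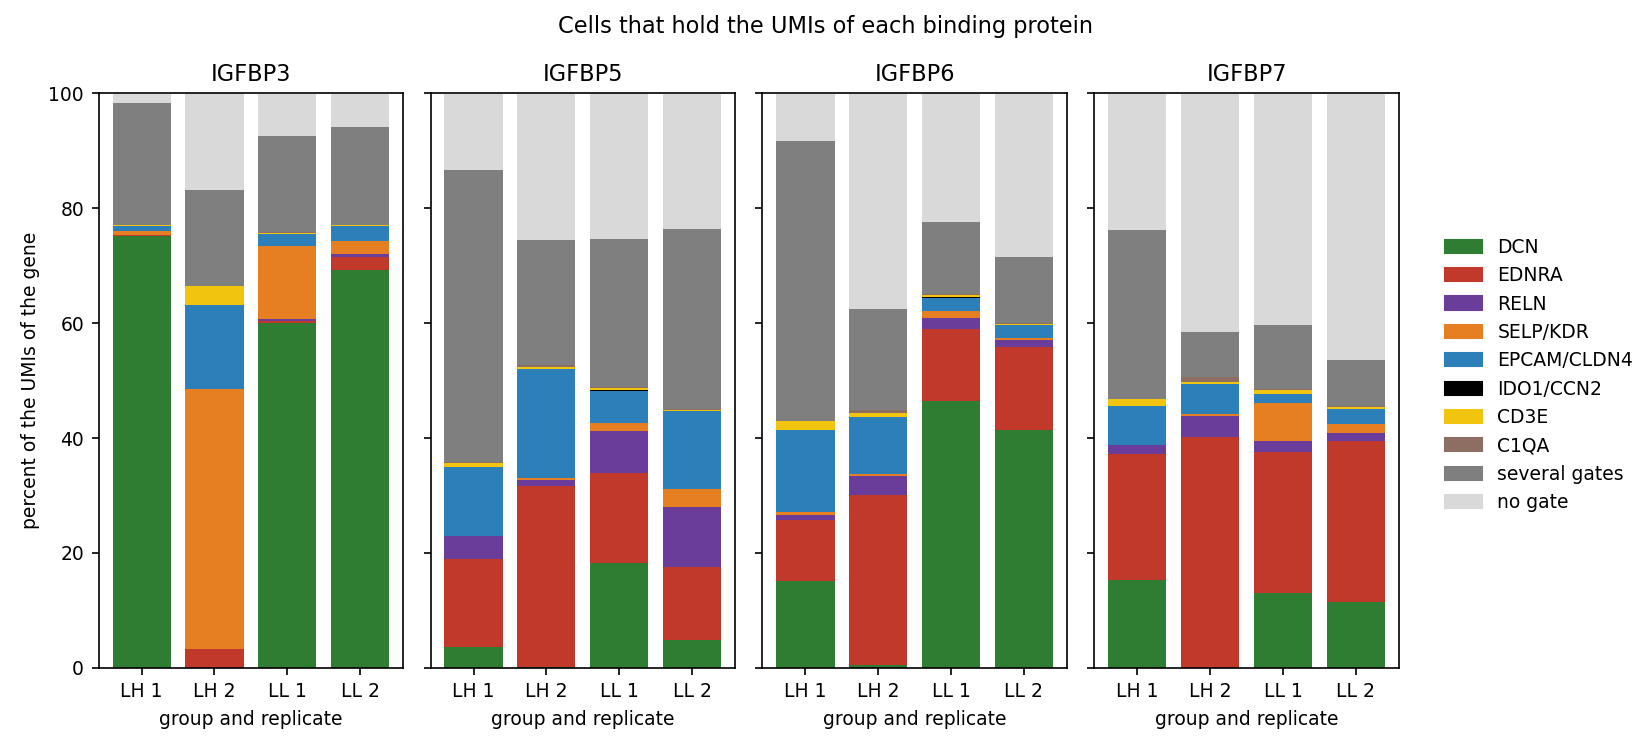
Percent of the UMIs of each binding protein held by the cells of each gate, by cells passing several gates and by cells passing none, stacked to 100% for each ewe. DCN cells hold 60.0% to 75.2% of IGFBP3 in 3 ewes, and no single gate holds more than 31.5% of IGFBP5.

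Pairs of binding proteins were also read in single cells thinned to 1000 UMIs. Among DCN cells, IGFBP6 was seen in 43.6%, 71.3% and 58.2% of cells with an IGFBP3 UMI and in 60.3%, 65.8% and 60.0% of those without, in LH replicate 1 and LL replicates 1 and 2. The sign of that difference varied over ewes. Among EDNRA cells, IGFBP7 was seen in 65.3%, 84.3%, 80.5% and 63.4% of cells with IGFBP6 and in 53.4%, 78.0%, 65.0% and 57.6% of cells without, more in each ewe.

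Within the stromal gates, IGFBP6 and IGFBP7 were higher in the same sub-gates of those compared here. EDNRA cells with at least 5 TPM1 UMIs had 617, 455, 512 and 406 CPM of IGFBP6. EDNRA cells with fewer TPM1 UMIs and with FABP4 (a fatty acid binding protein of capillaries and fat) had 943, 1422, 1111 and 806 CPM, more in each ewe, though LH replicate 1 had 16 such cells. IGFBP7 stood at 965, 2002, 1341 and 934 CPM in the TPM1 cells and at 1404, 3100, 2461 and 1504 CPM in the FABP4 cells. EDNRA cells with few TPM1 UMIs and no FABP4 are not given here, so FABP4 and low TPM1 cannot be told apart. The part of depth in this split was not tested. Among DCN cells, those with FGF10, a growth factor of mammary stroma, had less IGFBP6 than those without in LH replicate 1 and LL replicates 1 and 2 (1057, 1446 and 1432 against 1430, 1966 and 1813 CPM). IGFBP7 was lower as well, at 652, 489 and 332 against 963, 592 and 496 CPM, and so was IGFBP5, at 31.2, 199.9 and 103 against 84.2, 379 and 133 CPM, while IGFBP3 had no such order. The median depths of FGF10 cells were the higher ones, 4361, 3415 and 2806 against 3375, 3284 and 2467.5 UMIs, and their part in these differences was not tested.

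In luminal cells IGFBP6 was highest in LH replicate 1. EPCAM/CLDN4 cells had 322, 50.7, 80.7 and 19.1 CPM of IGFBP6. Those with a UMI of MMP7 (matrilysin, a protease of glandular epithelium) had 667, 83.3, 297 and 58.9 CPM, and those without had 46.1, 35.1, 40.7 and 12.8 CPM, less in each ewe. This split was chosen after the data were seen, and median depths were 13741, 10986.5, 6178 and 9548.5 UMIs with MMP7 and 6304.5, 7550.5, 8351.5 and 7530 without, whose part was not tested. In LH replicate 2 the thinned share of EPCAM/CLDN4 cells with IGFBP6, 4.96%, was below the 6.39% of C1QA cells and above the 3.45% of CD3E cells. The part of free RNA in it was not tested. Where SPP1 was at least LTF, IGFBP6 was at 379, 42.3, 92.7 and 20.8 CPM. The 18, 151, 259 and 1017 cells in which LTF exceeded SPP1 had 7.0, 26.1, 59.3 and 8.43 CPM. Cells passing both EDNRA and EPCAM/CLDN4, other gates allowed, numbered 81, 237, 50 and 96. IGFBP6 in such cells is given here for LH replicate 1 alone. There, 70 of them passed no other gate and had 1978 CPM of IGFBP6 and 241 CPM of IDO1. Their median depth was 12202 UMIs, which was also above the 3379.5 UMIs of EDNRA cells, and whether they were doublets was not tested beyond the doublet call. The 27 cells of that ewe with IDO1 and EPCAM or CLDN4 had 1693 CPM of IGFBP6, and the other ewes had 6, 7 and 4 such cells. The 5 and 1 cells with both IDO1 and CCN2 in the LL ewes had 11 and 3 IGFBP5 UMIs, too few to place. Cells with CCN2 (a matrix protein of the same superfamily as the binding proteins) and no IDO1, a gate formed after the data were seen, numbered 13, 79, 230 and 109. They had 208, 332, 429 and 597 CPM of IGFBP5, 486, 468, 664 and 447 CPM of IGFBP6 and 798, 1630, 911 and 519 CPM of IGFBP7.

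For LH against LL, 4 gates had at least 20 cells in every ewe, and 14 pairs of a binding protein and a gate passed the filter, IGFBP3 in EDNRA and EPCAM/CLDN4 cells only. None was called by edgeR at an adjusted p under 0.05, and 4 had an unadjusted p under 0.05. DESeq2 called 1 pair. Both LL values lay above both LH values in 5 pairs and below them in 1, and the groups overlapped in 8. For any gene, 2 of the 6 ways to split 4 ewes 2 against 2 set the groups apart. The share of all genes set apart was not computed, so these counts describe the pairs alone. Few genes of any kind were called by edgeR: 0.038% in EDNRA cells, 0.016% in EPCAM/CLDN4 cells, 0 in RELN cells and 0.0113% in CD3E cells. An unadjusted edgeR p under 0.05 was found for 657 of 10513, 858 of 12475, 579 of 5788 and 549 of 8859 genes in the same gates. With 2 ewes against 2, an exact permutation test of 1 gene cannot go below p = 0.333. In simulated EDNRA sums, this edgeR test recovered 87% of 4-fold and 13% of 2-fold changes, and in simulated RELN sums 28% and 2%.

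IGFBP5 was the gene whose LL values lay above both LH values in 3 of the 4 gates. On the normalised scale of the test, IGFBP5 was at 223 and 287 CPM in EDNRA cells of the LH ewes and at 495 and 330 CPM in those of the LL ewes. The LH ewes had 53.7 and 40.02 CPM in EPCAM/CLDN4 cells and the LL ewes 88.0 and 76.5 CPM. The RELN values were 317 and 122 CPM for LH against 1103 and 1982 CPM for LL, or 219 ± 138 and 1542 ± 621 (SD, n = 2 ewes each). The groups did not overlap in these 3 gates. The gates came from the same 4 ewes, and how many of all genes did the same was not computed. In CD3E cells the groups overlapped, with 1.56, 10.9, 17.5 and 7.16 CPM. The log2 differences were 0.69 ± 0.26 in EDNRA cells (edgeR adjusted p = 0.767), 0.82 ± 0.22 in EPCAM/CLDN4 cells (edgeR adjusted p = 0.69) and 2.83 ± 0.59 in RELN cells (edgeR adjusted p = 0.422). In RELN cells DESeq2 gave 2.92 and an adjusted p of 0.00219, and edgeR called the gene without LH replicate 1 (log2 3.76, adjusted p = 1.51e-09) or without LH replicate 2 (log2 2.30, adjusted p = 2.83e-05). Those 2 fits set 1 LH ewe against 2 LL ewes, assume that the lone ewe varies like the others, and called 1018 of 6692 and 812 of 6653 genes. The RELN gate of LH replicate 2 held 13.4 CPM of F8 against 207 and 215 CPM in LL, and the part of this make-up in the difference was not tested. Among RELN cells with F8 or KDR, a split made after the data were seen, LH had 1095 and 1040 CPM, the second from 9 cells. LL had 1478 and 3389 CPM, a smaller ratio to LH than in the whole RELN gate.

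IGFBP6 overlapped between the groups in each of the 4 gates, and IGFBP7 in 3 of them. In EDNRA cells the log2 LL/LH difference was 0.03 ± 0.23 for IGFBP6 (edgeR adjusted p = 0.998) and -0.12 ± 0.41 for IGFBP7 (edgeR adjusted p = 0.988), and both genes overlapped between groups. In EPCAM/CLDN4 cells IGFBP7 was at 93.5 and 64.0 CPM for LH against 59.3 and 23.0 CPM for LL, the only pair with both LH values above both LL values (log2 -0.94 ± 0.49, edgeR adjusted p = 0.746). IGFBP6 there was at -1.87 ± 1.02 (edgeR adjusted p = 0.749), with 309 CPM in LH replicate 1 and 20.6 to 77.8 CPM in the other 3 ewes. In RELN cells IGFBP7 was at -1.37 ± 0.80 (edgeR adjusted p = 0.635), with 2315 CPM in LH replicate 2 and 406 to 651 CPM elsewhere. IGFBP3 had log2 differences of 2.20 ± 0.62 in EDNRA cells (edgeR adjusted p = 0.707) and 2.07 ± 0.92 in EPCAM/CLDN4 cells (edgeR adjusted p = 0.719), but from 1, 6, 16 and 23 UMIs in EDNRA cells. In EPCAM/CLDN4 cells LL replicate 1 had 10.3 CPM and the other ewes 1.40 to 1.83 CPM, and without LL replicate 1 the difference was 0.38.

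IGFBP3 could not be tested in the full design in the cells that carry it, since LH replicate 2 had 9 DCN cells and LH replicate 1 had 16 SELP/KDR cells. Without LH replicate 2, with 1 LH ewe against 2 and the lone ewe taken to vary like the others, its log2 LL/LH difference in DCN cells was -0.75 ± 0.29 (edgeR adjusted p = 0.453). Without LH replicate 1 it was -1.56 ± 0.57 in SELP/KDR cells (edgeR adjusted p = 0.684).

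**Figure D5:**
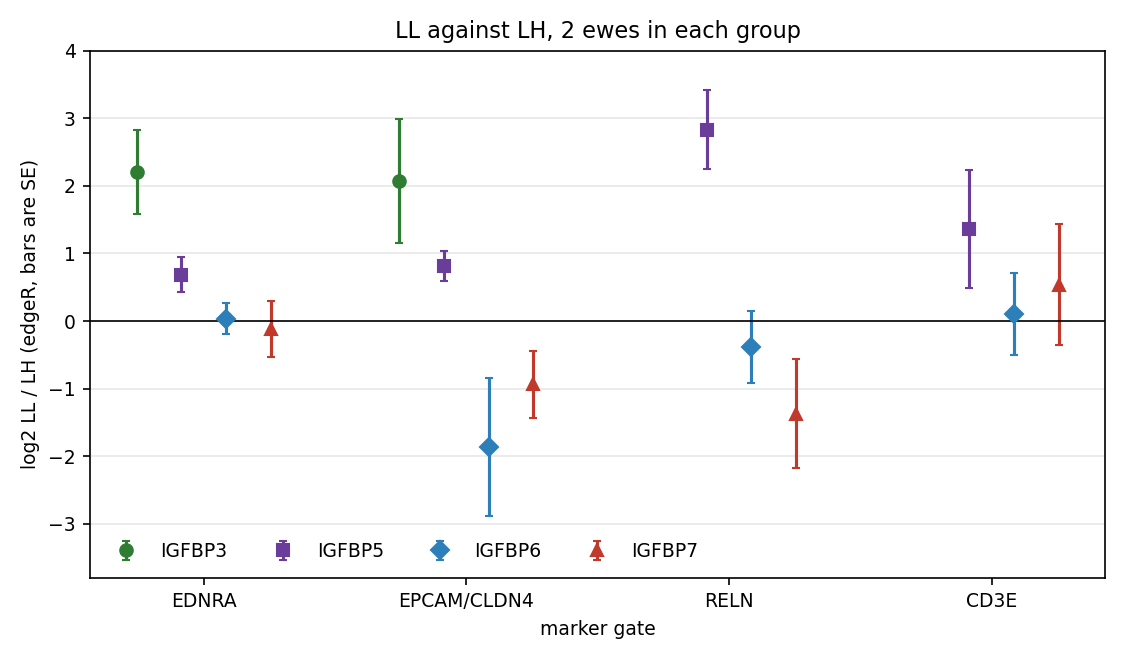
Log2 LL/LH difference of each binding protein in the 4 tested gates, with edgeR estimates for 2 ewes in each group and SE bars derived from the quasi-likelihood F statistic. IGFBP5 lies above 0 in each gate, from 0.69 in EDNRA cells to 2.83 in RELN cells, and no point passed an adjusted p of 0.05.

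Of 42 other genes listed for the IGF axis, 6 carried a symbol in the files (IGFBP1, IGFBP4, MMP7, FOXO3, GHR and STAT5A), and the rest, the IGFs and their receptors among them, were not analysed here. IGFBP4, another secreted binding protein, divided the gates like IGFBP3 with RELN cells added: its medians were 58.4 CPM in SELP/KDR, 39.7 CPM in DCN and 31.7 CPM in RELN cells and 4.63 CPM in EDNRA cells. It was called higher in the first 3 (log2 3.67, 3.25 and 2.90, edgeR adjusted p = 8.22e-07, 1.99e-07 and 3.33e-05). IGFBP1, a liver binding protein, had no UMI in any gate. GHR, the growth hormone receptor, was lowest in C1QA, CD3E and SELP/KDR cells and had 364, 256 and 195 CPM in DCN cells of LH replicate 1 and LL replicates 1 and 2. FOXO3, a transcription factor that insulin and IGF signals restrain, lay between 122 and 595 CPM in the gated cells of at least 20. STAT5A, which carries prolactin signals, had 56.0, 38.5, 33.3 and 42.4 CPM in EPCAM/CLDN4 cells. MMP7 had 157, 74.0, 82.7 and 24.2 CPM there.

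The genes with the most similar pattern were found among 327 named genes, by Pearson's r of log2(CPM + 10) over 26 gate-by-library sums, which share libraries and differ in depth. IGFBP3 was most like BMP4 (r = 0.84), CAST (0.80), IGFBP4 (0.79), TTR (0.79) and MMP2 (0.75). IGFBP6 was most like the matrix genes BGN (0.91) and SPARC (0.90), SFXN1 (0.88), IGFBP7 (0.88) and the integrin subunit ITGB1 (0.88). IGFBP7 was most like ITGB1 (0.93), IGFBP6 (0.88), the protease inhibitor TIMP3 (0.87), MYC (0.86) and NFIL3 (0.83). IGFBP5 was most like YAP1 (0.81), PURA (0.81), CAV1 (0.79), TIMP3 (0.79) and ARL3 (0.78).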

How the data were processed

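The deposited values were raw UMI counts for each gene in each barcode. Per the submitters' processing notes they were made with Cell Ranger 5.0.1 and STAR, with Seurat 3.2.0 also named; per the file headers the version was Cell Ranger 7.2.0. The genome build was not given in the sources used here. No column of other samples was present. Names came from the files, in which 774 of 20150 genes had a symbol.

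Barcodes with over 20% mitochondrial UMIs (13 genes) were left out, 102, 19, 94 and 145 in the order used in the text. A Scrublet-type score (2 simulated doublets per cell, 2000 variable genes, 30 principal components) removed the top 0.8% per 1000 barcodes, 284, 704, 1297 and 1000 barcodes, leaving 5570, 8657, 11343 and 10035 cells. Gated UMIs were summed per library, and sums of at least 20 cells were tested with edgeR 4.0.16 (quasi-likelihood, TMM, filterByExpr at a count of 10) and Benjamini-Hochberg adjustment over all genes of a contrast. LL was set against LH within each gate (2 against 2 ewes), and each gate against the mean of the others with the library as a block. Levels were CPM on unscaled totals except where the text names the normalised scale. Intervals were exact at 95% and cover counting error only. The SE of an edgeR log2 difference was its absolute value divided by the square root of the quasi-likelihood F statistic. Genes were named by rule: the 4 binding proteins in every gate, IGF axis genes over 20 CPM in at least 1 gate median, and the 5 most similar named genes. The binding proteins, lists and gates were chosen with earlier results of these data known. The fits were tested on simulated counts. Alternatives (DESeq2 1.42.0, other scaling, filters, gates and left-out libraries) are given at the end.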

Additional observations from a re-analysis of the deposited data

How the results depend on the processing

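The count of binding proteins called in LL against LH, 0 of 14, became 1 with DESeq2 and 2 with no filter on low counts, and ranged from 0 to 3 when 1 ewe was left out (3 without LH replicate 1, 1 without LH replicate 2). Genes of any kind called, 7 over the 4 gates, became 224 with DESeq2, 938 with no filter, 4 with gate markers at 2 UMIs, 2 with cells kept in every gate they pass and 4 with gates set on counts thinned to 1000 UMIs. They ranged from 5 to 1052 when 1 ewe was left out (1052 without LH replicate 1, 977 without LH replicate 2). The causes were not tested. The binding proteins called in 1 gate against the others, 17 of 24, ranged from 14 to 21 over all settings.

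Deviations of same-numbered ewes correlated at -0.21, 0.15, 0.04 and -0.14 in EDNRA, EPCAM/CLDN4, RELN and CD3E cells. Each value rests on a single difference between ewes in each group, so it cannot show whether replicate numbers mark a pairing. With the replicate block 8 genes and 0 binding proteins were called. With the numbers crossed, chosen after seeing the data, 97 genes and 0 binding proteins were called, and IGFBP6 in CD3E cells was at -0.079.

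Log2 LL/LH differences that changed sign were those of IGFBP6 and IGFBP7, in gates where the groups overlapped. With gate markers at 2 UMIs, IGFBP6 was at -0.12 in EDNRA and -0.15 in CD3E cells. With cells kept in every gate, IGFBP6 was at -0.36 in EDNRA cells, and IGFBP7 at 0.11 in EDNRA and -0.056 in CD3E cells. With thinned gates, IGFBP6 was at -0.24 and IGFBP7 at -0.0036 in CD3E cells. With 1 ewe left out, IGFBP6 ranged from -0.25 to 0.28 in EDNRA cells, from -0.76 to 0.46 in RELN cells and from -1.02 to 0.93 in CD3E cells. IGFBP7 ranged from -0.57 to 0.55, from -2.01 to 0.41 and from -0.61 to 2.52 in the same gates. The positive RELN values of both genes came without LH replicate 2, and both were called lower there without LH replicate 1 (edgeR adjusted p = 0.026 and 1.99e-07), in a fit of 1 LH ewe against 2 LL ewes that assumes equal spread and called 1018 of 6692 genes.

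Log2 differences of 1 gate from the others changed sign as follows. With cells kept in every gate, IGFBP5 was at -0.038 in DCN and -0.083 in SELP/KDR cells, IGFBP3 at 0.41 in EDNRA and -0.13 in SELP/KDR cells, and IGFBP7 at -1.61 in SELP/KDR cells. With thinned gates IGFBP7 was at -0.27 in SELP/KDR cells. With gates refined after seeing the data, IGFBP5 was at -0.10 in DCN cells, and IGFBP3 and IGFBP7 were at 1.14 and -0.21 in RELN cells. With 1 ewe left out, IGFBP5 ranged from -0.58 to 0.83 in DCN cells and from -1.40 to 1.29 in SELP/KDR cells. Of the other values, 328 gate differences and 205 LL/LH differences kept their sign and their side of the threshold. Mean shares of cells with a UMI moved beyond 1 SD in 40 cases and stayed within it in 44 when cells were thinned to other depths or not at all.

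Some gates held few cells: 9 DCN cells in LH replicate 2, 16 SELP/KDR cells in LH replicate 1 and 45 RELN cells in LH replicate 1.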
